A study of Nothobranchius furzeri with 39 samples.

Results

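The 7 genes described here, fabp2, lct, malrd1, tmprss15, muc13b (LOC107387911), cdx1b (LOC107387175) and muc2.1 (LOC107388511), are best known from the lining of the intestine. They were followed through brain and liver RNA of Nothobranchius furzeri, the turquoise killifish, whose short life makes it a model for research on ageing. They were picked by name because of their values in the brain libraries from fish aged 3 months, so those values are given as a description, and no p-value is given for the 7 genes there. All 7 were counted in each of the 3 count tables, the largest of which, at 2 months, holds 25099 genes.

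The study asked how the DNA sensor cGAS acts in fish with unstable genomes, and it sequenced polyadenylated RNA from 39 samples, of which 37 gave libraries used here. At 3 months, brains came from cgas mutant fish (3 females and 2 males) and from WT fish (1 female and 1 male). At 2 months, brains and livers came from fish mutant for atm, a DNA damage kinase gene, from fish mutant for both atm and cgas (called double mutants below) and from WT fish. There were 4 brain libraries in each of these 3 groups, and 3 livers from atm mutants, 4 from double mutants and 4 from WT fish, with both sexes in every group. At 3 months, livers came from 3 males mutant for blm, a DNA helicase gene labelled Blm1, and from 4 WT males. The labels do not describe the alleles, and nothing in them says that any group carries a transgene or that animals were pooled. Nor do they say how the fish of a group are related, so p-values measure the spread between these samples.

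Libraries held 11.0 M to 17.28 M counted reads in the 3-month brains (M is 1000000 reads), 18.63 M to 39.28 M in the 2-month brains, 25.0 M to 36.82 M in the 2-month livers and 19.5 M to 24.09 M in the 3-month livers. The tissue label of the 3-month cgas mutant libraries and of the WT libraries beside them is brain, whereas their extraction text speaks of livers. Their neuron markers summed to 1994 to 6790 counts per 1000000 reads (CPM) in cgas mutants and to 6625 and 6729 CPM in WT fish. The same markers summed to at most 17.3 CPM in any liver but to 10302 to 11172 CPM in the 2-month brains. Muscle markers took 5.57% to 19.8% of the counts in the cgas mutant brains and 3.42% in each WT brain, but at most 0.147% in any 2-month brain. The cgas gene itself (mb21d1) had 13, 18 and 8 reads in the mutant females, 8 and 12 in the mutant males, 282 in WT female 4 and 19 in WT male 3. Its RNA therefore set WT female 4 apart but left WT male 3 close to the mutants. Where the mutation lies is not given in the sources used here, so RNA of mb21d1 need not be missing in a mutant.

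The intestinal lining absorbs food through enterocytes, whose brush border carries digestive enzymes, and is coated with mucus made by goblet cells. In this tissue fabp2 binds fatty acids inside enterocytes, lct is lactase, a brush-border sugar enzyme, and tmprss15 is enteropeptidase, which switches on trypsin in the gut lumen. The gene malrd1 was linked in mice to bile acid control by way of a hormone made in enterocytes. Of the mucin genes, muc13b codes for a mucin that spans the cell membrane and muc2.1 for one that is secreted and forms gels. The gene cdx1b codes for a homeobox transcription factor of the gut epithelium. Most of these roles come from mammals and zebrafish.

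In the 3-month brains, the 5 cgas mutant libraries held at most 105 reads of any of the 7 genes, and both WT libraries held at least 116 of each. The enterocyte gene fabp2 had 43, 105 and 86 reads in the mutant females and 30 and 35 in the mutant males, against 3981 in WT female 4 and 1442 in WT male 3. Lactase (lct) had 1, 4 and 5 reads in the mutant females and 1 and 0 in the mutant males, against 1078 and 489 in the WT female and male. The 2 groups did not overlap for either gene. The pooled level of the mutants, as a share of the pooled WT level, was 1.95% for fabp2 (exact 95% interval 1.73% to 2.19%) and 0.248% for lct (0.124% to 0.445%). These intervals, and those that follow, cover counting error only and not the spread between fish.

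The other genes of enterocytes had the same division of libraries. Enteropeptidase (tmprss15) had 1 read in mutant female 1 and 0 in the other 4 mutants, against 681 in WT female 4 and 297 in WT male 3. A count of 0 allows up to 3 reads, which is 0.174 to 0.273 CPM in the mutant libraries. The bile acid gene malrd1 had 4, 9 and 6 reads in the mutant females and 6 and 4 in the mutant males, against 747 and 327 in the WT female and male. The mutants' pooled level was 0.0361% of WT for tmprss15 (interval 0.000914% to 0.202%) and 0.954% for malrd1 (0.636% to 1.38%).

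Both mucins and the transcription factor gene followed. The membrane mucin gene muc13b had 2, 1 and 0 reads in the mutant females and 0 and 1 in the mutant males, against 2168 in WT female 4 and 732 in WT male 3. The secreted mucin gene muc2.1 had 10, 21 and 28 reads in the mutant females and 4 and 6 in the mutant males, against 928 and 295 in the WT female and male. The gene cdx1b had 1 read in each mutant female, 1 and 0 in the mutant males, and 364 and 116 in the WT female and male. Pooled mutant levels were 0.0487% of WT for muc13b (0.0133% to 0.125%), 1.99% for muc2.1 (1.54% to 2.54%) and 0.294% for cdx1b (0.0799% to 0.759%). Mucin genes occur in families with repetitive sequence, and reads that could fall on a near-identical copy were not resolved here.

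**Figure D1:**
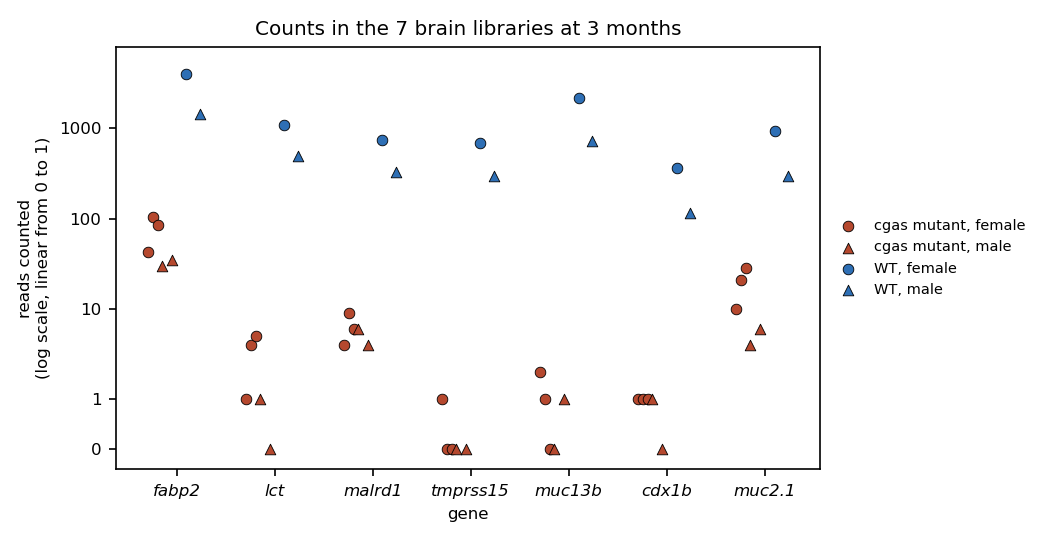
Reads counted on each of the 7 genes in the 3-month brain libraries (vertical axis, log scale, linear below 1; 5 cgas mutants in red left of 2 WT fish in blue; circles are females, triangles males). For every gene both WT points lie above all mutant points, from 116 reads for cdx1b to 3981 for fabp2 in the WT libraries, and at most 105 reads for any gene in a mutant.

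For all 7 genes, then, both WT brains were above all 5 mutant brains, a pattern shared by 30.6% of the 13825 genes tested. The lower WT library exceeded the highest mutant library by 9.85-fold for muc2.1, the narrowest of the 7, and by 385-fold for muc13b, the widest. By edgeR's quasi-likelihood test at an adjusted p under 0.05, 64 genes were called (0.463% of those tested), 59 of them lower in the cgas mutants (0.427%) and 5 higher, and all 7 intestinal genes were among those lower. Nothing is read from that count or from its stability, since the genes were chosen on this contrast. Over the whole table the calls hung on WT female 4: without that library no gene was called, though 1355 genes had an unadjusted p under 0.05.

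The 2 WT brains differed from each other in the same direction for all 7 genes. WT female 4 was above WT male 3 by 2.09-fold for lct, 2.16-fold for malrd1, 2.17-fold for tmprss15, 2.61-fold for fabp2, 2.80-fold for muc13b, 2.97-fold for cdx1b and 2.98-fold for muc2.1, in CPM. The make-up of the reads was close but not the same. Shares among the 7 depend on transcript length and are compared only between libraries. Of the reads on the 7 genes, fabp2 took 40.0% in WT female 4 (Wilson 95% interval 39.1% to 41.0%, 9947 reads) and 39.0% in WT male 3 (37.4% to 40.6%, 3698 reads). The share of muc13b was 21.8% (21.0% to 22.6%) in the WT female and 19.8% (18.5% to 21.1%) in the WT male. Lactase took 10.8% (10.2% to 11.5%) in the WT female and 13.2% (12.2% to 14.4%) in the WT male, so the intervals of lct did not overlap. In the mutants the mix was another: fabp2 took 74.5% of 141 reads (66.7% to 80.9%) in mutant female 2 and 68.3% of 126 reads (59.7% to 75.7%) in mutant female 3, and muc13b took 1 of the 141 and 0 of the 126 (Wilson upper bound 2.96%).

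Among the mutants, fabp2 and muc2.1 were lower in both males than in all 3 females. The level of fabp2 was 2.38 and 2.03 CPM in the mutant males, against 3.47, 6.91 and 7.82 CPM in the mutant females. The same order held for muc2.1, at 0.318 and 0.347 CPM in males and 0.808, 1.38 and 2.55 CPM in females. The levels of malrd1 overlapped, at 0.477 and 0.232 CPM in males and 0.323, 0.592 and 0.546 CPM in females. With 2 males and 3 females the order was not tested. The share of all genes with the same order is not given here, so nothing is read from it. Muscle markers took 16.3% and 19.8% of counts in those males and 11.1%, 9.74% and 5.57% in those females in the same library order, and their part in the difference was not tested.

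**Figure D2:**
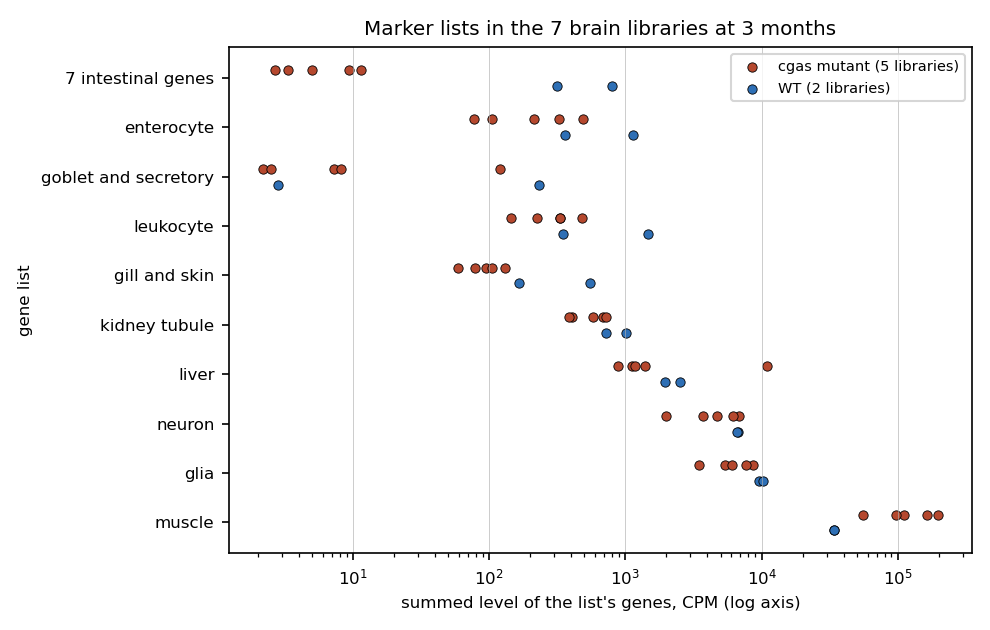
Summed level of each marker list in the 3-month brains in CPM (log axis; 5 cgas mutants in red above 2 WT fish in blue). The 7 intestinal genes leave a wide gap between mutants (at most 11.5 CPM) and WT (at least 314 CPM). The enterocyte, goblet and secretory, leukocyte, liver and neuron lists overlap. Kidney markers are just higher in both WT fish (at least 726 CPM, against at most 718 CPM in mutants). Both WT fish are also above all mutants for gill and skin (at least 166 against at most 130 CPM) and glia (at least 9596 against at most 8621 CPM). Muscle markers are lower in WT.

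Most, but not all, other intestinal markers moved less than the 7, which were picked for their values in these libraries. Of 22 tested enterocyte genes on a list that leaves the 7 out, 2 were lower in the mutants by edgeR and none was higher, with a median log2 change of -1.28 against 0.02 over all genes tested. One of these was mogat2, an enzyme gene of fat absorption, with 47 to 134 reads in mutants against 519 in the WT female and 277 in the WT male (adjusted p 0.0355 by edgeR). Without WT female 4 it was not called, as no gene was. The enterocyte marker cdh17 did not pass, with 56 to 3343 reads in the mutants against 3116 in the WT female and 643 in the WT male. Summed, the list reached 77.6 to 492 CPM in mutants, against 1137 CPM in the WT female and 360 CPM in the WT male, so the groups overlapped. Both WT libraries were above every mutant for 8 of the 22, beside 30.6% of all genes tested, so nothing is read from that number.

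Secretory, endocrine and regulatory markers of the gut gave no call. Of 3 goblet and secretory genes tested, 5 enteroendocrine genes and 13 gut transcription factor genes, 0 passed by edgeR in either direction. The gut transcription factor list summed to 823 CPM in WT female 4 and 904 CPM in WT male 3, against 296 to 680 CPM in the mutants. It also summed to 792 to 966 CPM in the 2-month brains and 512 to 1237 CPM in the 2-month livers. A sum of this size was therefore not particular to the 3-month WT brains. Within the list, tcf7l2 alone had 403 and 405 CPM in the WT female and male, against 130 to 356 CPM in the mutants. The mucus gene fcgbp had 3 reads in WT female 4 and 2471 in WT male 3, with 16 to 1288 in the mutants, so it did not go with muc2.1. The goblet cell factor gene spdef likewise had 14 and 209 reads in the WT female and male.

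Markers of other cells also differed between the libraries. The 13 leukocyte genes summed to 144 to 478 CPM in the mutants, 1454 CPM in WT female 4 and 348 CPM in WT male 3. None of the 13 was called, and none was at 0 in a 3-month brain. The gill and skin genes (3 tested, 0 called) summed to 58.7 to 130 CPM in mutants, against 166 CPM in WT female 4 and 553 CPM in WT male 3. The adaptor gene sting1 had 38 to 111 reads in the mutants, 575 in WT female 4 and 72 in WT male 3. Liver markers reached 10876 CPM in cgas mutant female 3, whose 7-gene sum of 11.5 CPM was the highest of the mutants, and 876 to 1395 CPM in the other mutants. The part of these cells in the intestinal gene counts was not tested. In bulk RNA, fewer cells of a type and less RNA per cell cannot be told apart.

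The 12 genes whose levels followed the mean of the 7 most closely over the 7 brains had Pearson r from 0.997 to 0.998 on log2(CPM + 1), out of 13708 genes compared. Since 2 libraries stand far from 5, such an r says little more than that a gene shares the division, and 40 genes reached 0.99. The 12 were aqp8 (a water channel), cldn15la (a tight-junction claudin), aoc1 (diamine oxidase, which breaks down histamine), plac8, zanl, vwa11, zgc:136472 and 5 genes known only by number: LOC107382474, LOC107379393, LOC107396508, LOC107387202 and LOC107376603. Of these, 10 were called lower in the mutants, and aqp8 and LOC107376603 were not. The gene aqp8 (log2 change -6.24) was also on the kidney list, whose 17 tested genes had a median log2 change of -0.07. The claudin gene cldn15la had 0 or 1 read in the mutants, 298 in the WT female and 147 in the WT male. The oxidase gene aoc1 had 1 to 6 reads in the mutants, against 478 and 163 in the same WT fish.

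Positions are given here as a description, and their part in the pattern was not tested. Of the 7, 6 have an entry in RefSeq's NfurGRZ-RIMD1 gene table and lie on 5 chromosomes. On the chromosome that holds 2 of them, cdx1b and tmprss15 have 11 other genes between them in the gene order of the count tables. Of those, 10 were tested and 0 were called by edgeR, with log2 changes from -0.04 to 1.23 in cgas mutants over WT.

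In the 2-month brains none of the 7 approached the 3-month WT levels, and fabp2 and malrd1 were the ones counted in every library at 10 reads or more. Levels are set side by side across tables that were made separately. The 7 genes summed to 10.5 to 11.6 CPM in atm mutants, 9.76 to 13.0 CPM in double mutants and 12.1 to 15.8 CPM in WT fish. At 3 months the sums were 2.66 to 11.5 CPM in cgas mutants, 801 CPM in WT female 4 and 314 CPM in WT male 3. Of the reads on the 7 genes in the 2-month brains, fabp2 took 73.1% to 83.1%, beside 74.5% and 68.3% in the 3-month mutant females 2 and 3 and 40.0% and 39.0% in the 3-month WT fish.

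By group, fabp2 averaged 8.54 ± 0.619 CPM in atm mutant brains, 9.01 ± 1.44 CPM in double mutant brains and 10.5 ± 1.75 CPM in WT brains (SD, n = 4 each). Its reads were 121, 96, 196 and 114 in atm mutants 1 to 4, 116, 150, 190 and 175 in double mutants 1 to 4, and 124, 162, 251 and 209 in WT fish 1 to 4. In CPM every atm mutant was below every WT fish, at 7.69 to 9.10 against 9.18 to 13.1, as 2.66% of 20273 genes were also lower in atm mutants with no overlap. By edgeR the log2 change was -0.31 (SE 0.151, adjusted p = 0.581) in atm mutants over WT and -0.22 (SE 0.151, adjusted p = 0.907) in double mutants over WT. The share of genes called was 0.00987% and 0.00493% in these comparisons, and neither fabp2 nor malrd1 passed. In double mutants over atm mutants edgeR called 0% of genes (1077 at an unadjusted p under 0.05), as did DESeq2.

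The level of malrd1 was 1.53 ± 0.454 CPM in atm mutant brains, 1.38 ± 0.576 CPM in double mutant brains and 1.59 ± 0.438 CPM in WT brains (SD, n = 4 each). Over the 12 brains it did not go with fabp2, with Pearson r of -0.114 (permutation p = 0.746) and Spearman rho of -0.336 (permutation p = 0.287), on log2(CPM + 1) with 100000 resamples. Without the 2 brains farthest from the median of fabp2, r was -0.431. This was the 1 pair with enough reads to compare. Male over female passed for neither gene by edgeR, with log2 changes of 0.07 (SE 0.124) for fabp2 and 0.18 (SE 0.285) for malrd1, and 0.00493% of genes were called.

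The remaining 5 genes were sparse in all 2-month brains. Reads ranged from 1 to 11 for lct and for cdx1b, from 2 to 11 for muc2.1 and from 0 to 3 for tmprss15. The mucin gene muc13b had 1 read in atm mutant 4, 1 in double mutant 1 and 0 in the other 10 brains. At these counts no difference between genotypes was detectable.

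**Figure D3:**
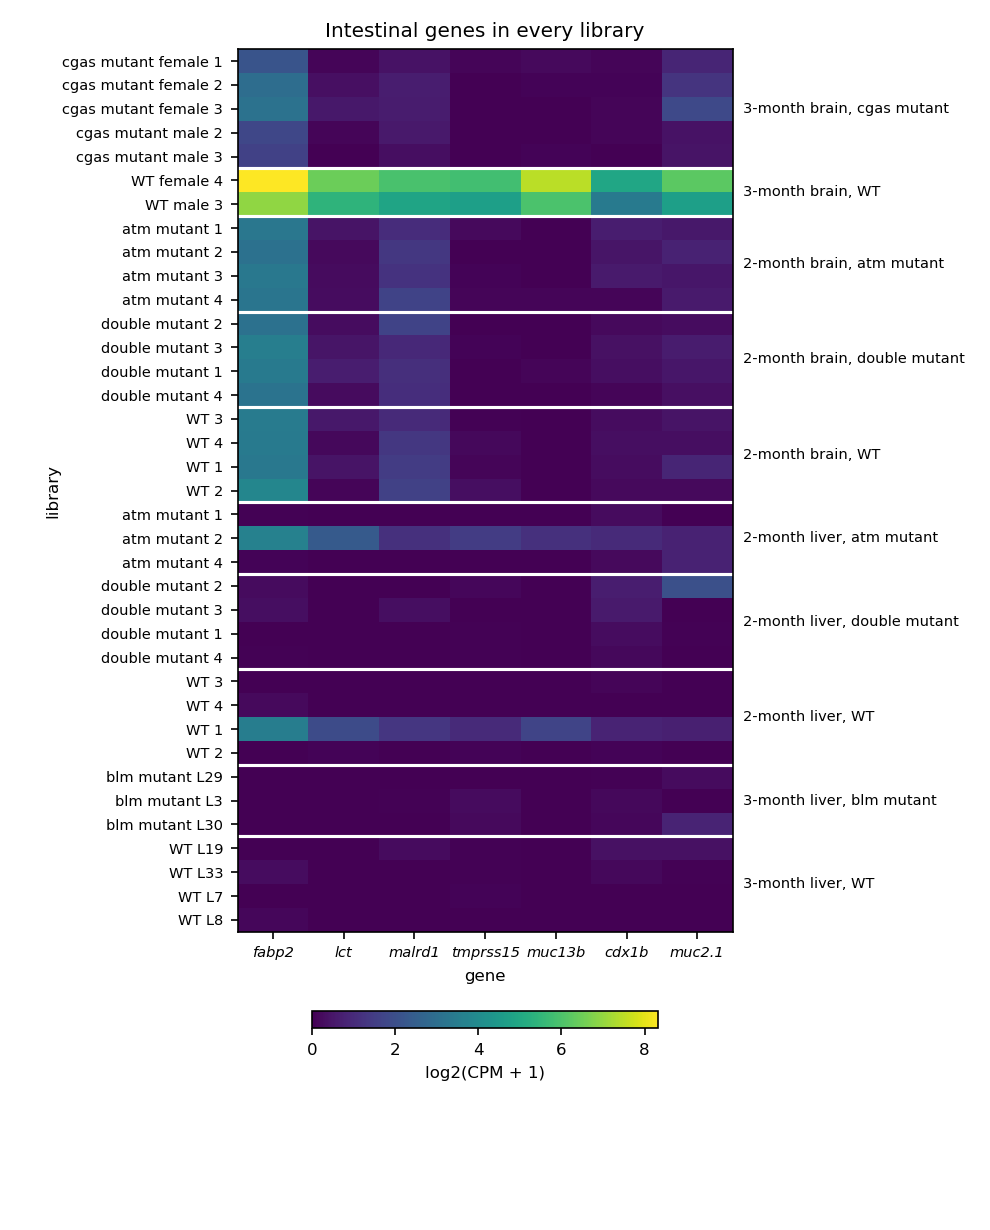
Level of the 7 genes in all 37 libraries as log2(CPM + 1) (colour; columns are genes, rows are libraries, in groups named at the right). Both 3-month WT brains are bright in every column, and among livers only atm mutant 2 and WT 1 at 2 months show all 7 genes, at sums of 21.6 and 19.3 CPM.

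In the 2-month livers 2 of 11 libraries carried the 7 genes together. The liver of atm mutant 2, a female, had 234 reads of fabp2, 85 of lct, 25 of malrd1, 36 of tmprss15, 25 of muc13b, 20 of cdx1b and 15 of muc2.1. The liver of WT 1, a male, had 238, 62, 34, 23, 51, 18 and 15 reads of these genes in the same order. In the other 9 livers fabp2 had 0 to 4 reads, lct 0 or 1, malrd1 0 to 4, tmprss15 0 to 2, muc13b 0 and cdx1b 0 to 12. So 6 of the 7 genes were highest in the same 2 livers. That pairing held for 59 (0.542%) of 10883 genes with at least 20 reads in a liver. None of the 6 reached 20 reads in another liver, and the pair was picked out by these same genes. Nothing is therefore read from that share. The exception was muc2.1, with 64 reads in the liver of double mutant 2, 15 in that of atm mutant 4 and 0 or 1 in the other 7.

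The 2 livers belong to different genotypes and sexes, and the brains with the same labels were ordinary. The brain of atm mutant 2 had 96 reads of fabp2 and 0 of tmprss15, and the brain of WT 1 had 124 and 1. In the livers the summed level was 21.6 CPM in atm mutant 2 and 19.3 CPM in WT 1, next below the 3-month WT brains in rank over all 37 libraries. Every other liver was at 0.0468 to 4.01 CPM, the highest being double mutant 2 through muc2.1. The 2 livers are described here as single libraries and are not compared as a group, since they stand out by these same genes.

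**Figure D4:**
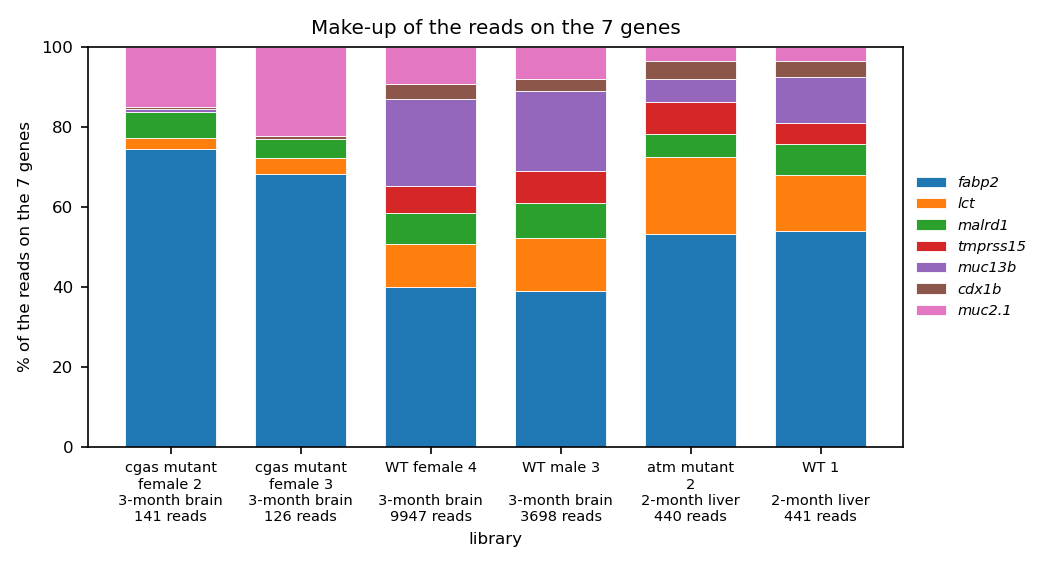
Share of each gene among the reads on the 7 genes in 6 libraries (bars add to 100%; read totals are under the bars). The 2 livers resemble the 3-month WT brains in holding all 7 genes, with fabp2 at 53.2% and 54.0%, and the 2 cgas mutant brains are mostly fabp2 and muc2.1.

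The gene mix in these livers was not the same as that of the 3-month WT brains. The share of fabp2 was 53.2% (Wilson interval 48.5% to 57.8%, 440 reads) in the liver of atm mutant 2 and 54.0% (49.3% to 58.6%, 441 reads) in that of WT 1, above the brains' intervals. Lactase took 19.3% (15.9% to 23.3%) and 14.1% (11.1% to 17.6%) in these livers. The mucin gene muc13b took 5.68% (3.88% to 8.25%) and 11.6% (8.91% to 14.9%), below both WT brains. Enteropeptidase took 8.18% (5.97% to 11.1%) and 5.22% (3.50% to 7.70%), which overlapped the brains' 6.85% and 8.03%.

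Genes that went with the 7 in the 3-month brains often peaked in the same 2 livers. Of the 52 other genes called lower in the cgas mutants, 37 had at least 20 reads in a 2-month liver, and 14 of these (37.8%) were highest in atm mutant 2 and WT 1. Among all genes of the 3 tables with that many reads in a liver, the share was 0.542%. Of the 12 genes most alike, 9 had that many reads in a liver, and 7 of these were highest in the same 2. All of these were also among the 14, so the counts overlap. The gene plac8, which had 0 to 4 reads in the mutant brains against 1576 and 606 in the WT female and male, was one. On the enterocyte list, 2 of 17 genes with enough liver reads peaked in these livers. One was the scaffold gene pdzk1, with 16 reads in atm mutant 2, 24 in WT 1 and at most 4 in another liver. The other was also among the 14. These counts are descriptions, with no test. Some of these genes reached 20 reads in no other liver, such as plac8, with 48 and 62 reads here and at most 9 elsewhere. Such genes were counted only through these livers, so their peak was largely fixed by the read limit. Nothing is read from the gap to 0.542%.

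**Figure D5:**
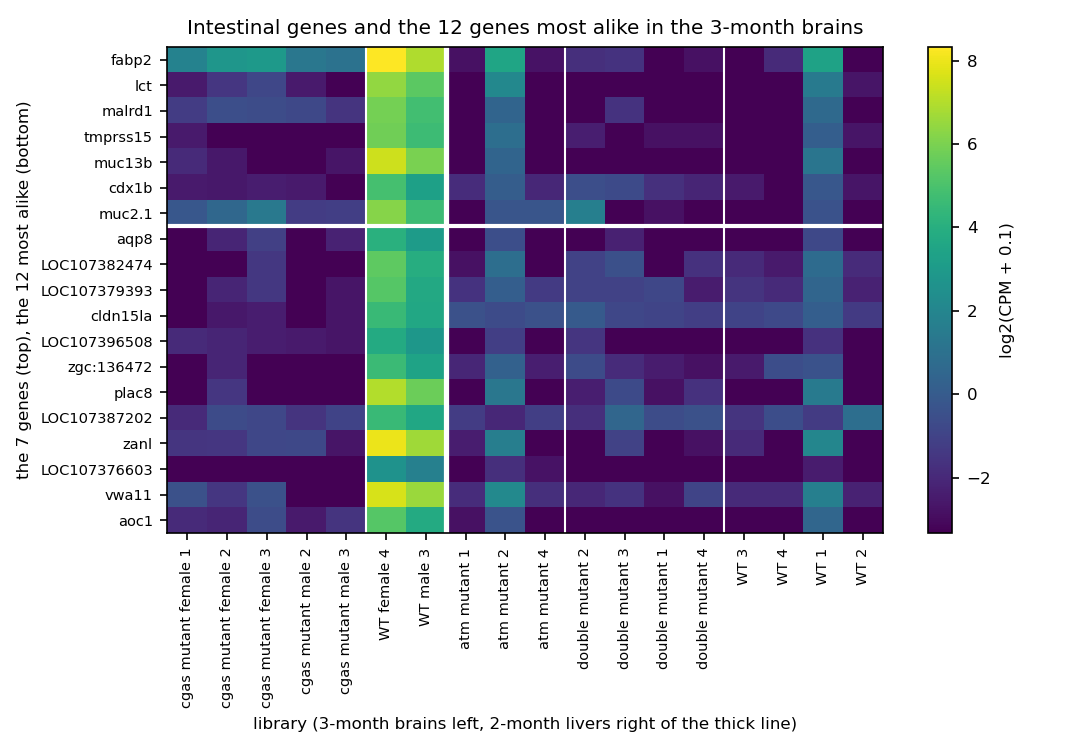
Level of the 7 genes (upper rows) and of the 12 genes most alike in the 3-month brains (lower rows), as log2(CPM + 0.1) in the 7 brains (left of the thick line, cgas mutants first) and the 11 livers at 2 months. WT female 4 and WT male 3 are brightest in every row, and atm mutant 2 and WT 1 are the 2 highest livers for 9 of the 12 lower rows, 2 of which have under 20 reads in every liver.

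Within the livers themselves, the 6 genes that followed the 7 most closely had r from 0.971 to 0.981 over 11 libraries, of 16385 genes compared. Since 2 livers stand far from the others, here too such an r says little more than that a gene shares the division. The 6 were cdhr2 (a cadherin of brush-border microvilli), rbp2a (an enterocyte retinol-binding protein), apoea (an apolipoprotein E gene), LOC107394958, LOC107372719 and LOC107380967. The retinol-binding gene rbp2a had 197 reads in atm mutant 2, 205 in WT 1 and 0 to 13 in the others. The apolipoprotein gene apoea had 2324 and 912 reads in these 2 livers and at most 14 elsewhere. Of the 6, LOC107372719 and LOC107380967 were also counted at 3 months, and both were already among the 14 genes above. The second had 0 to 3 reads in the mutant brains, 1794 in WT female 4 and 529 in WT male 3.

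Other markers differed between the 2 livers. Leukocyte markers summed to 45.5 CPM in atm mutant 2 and 317 CPM in WT 1. The genes mb21d1 and sting1 had 2 and 9 reads in the liver of atm mutant 2 but 271 and 455 in that of WT 1. The liver of double mutant 4 had 212 reads of mb21d1 and 982 of sting1 but 5 reads on the 7 intestinal genes together. Goblet and secretory markers were at 0.197 CPM in atm mutant 2 and 0.0876 CPM in WT 1, no higher than in some other livers. Exocrine pancreas markers were at 36.8 CPM in atm mutant 2 and 16.8 CPM in WT 1, in a range of 16.8 to 296 CPM over the 11 livers.

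No genotype difference in the livers passed. Only cdx1b and muc2.1 had enough reads to be tested, and by edgeR neither was called in atm mutants over WT (0% of 16174 genes called, 1621 at an unadjusted p under 0.05; DESeq2 called 127, neither of them included). In double mutants over WT 0.662% were called and in double mutants over atm mutants 0.0433%, again with neither gene. Male over female called 2.58% of genes and neither of these. Their adjusted p lay between 0.760 and 0.993 in all 4 comparisons by edgeR.

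The 3-month livers held almost none of the 7. No read of lct or muc13b was counted in the 3 blm mutant or the 4 WT livers. The blm mutant livers had 0 reads of fabp2, and the WT livers had 0, 0, 2 and 5. The most reads of any of the 7 in one liver were 15 of muc2.1, in blm mutant L30. None of the 7 had enough reads to be tested, and edgeR called 0 of 10374 genes in this comparison (835 at an unadjusted p under 0.05; DESeq2 called 159).

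Across tissues at 2 months, fabp2 and malrd1 had reads in all 12 brains. In the livers, fabp2 had reads in 8 of 11 libraries, at most 4 in 6 of them, and malrd1 in 3. The WT brains averaged 10.5 ± 1.75 CPM of fabp2 (SD, n = 4) and the WT livers had 10.4, 0, 0 and 0.162 CPM, the first in WT 1. In brain over liver of WT fish the log2 change was 1.08 (SE 1.45, adjusted p = 0.514) for fabp2 and 0.59 (SE 1.09, adjusted p = 0.636) for malrd1 by edgeR, where 76.1% of genes were called. Without the WT 1 liver the log2 change was 5.85 (SE 0.643) for fabp2 and 7.22 (SE 1.18) for malrd1. Both were then called, but nothing is read from that, since this liver stands out by these same genes.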

How the data were processed

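The deposited values are raw read counts per gene that the authors made from single-end reads, not normalized and not pooled, in 3 tables. Libraries were made with the KAPA mRNA HyperPrep kit, per the labels' protocols. The submitters' processing notes name FastQC 0.11.8, Trim Galore 0.6.4, cutadapt 3.4, STAR 2.7.6a and edgeR 3.32.1 without roles; genome build, annotation, strand and counter are not given in the sources used here. Reads of near-identical copies or antisense genes could therefore not be told apart.

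From the counts, CPM were computed as reads per 1000000 reads on the genes shared by the 3 tables. In the 3-month brain table, 8 gene names written as dates were restored by their place in the same gene order. One library, cgas mutant male 1, held 0 reads and was left out, and the liver of atm mutant 3 was not analysed here. The genes absent from the 3-month tables (8716) were not analysed at 3 months. Tests were fitted on whole tables with edgeR 4.0.16 (TMM, filterByExpr, quasi-likelihood test, sex as covariate where both sexes were present) in R 4.3.3, with Benjamini-Hochberg adjustment over all genes tested and a threshold of 0.05; DESeq2 1.42.0 was an alternative, beside RLE scaling, no filter, leaving out each library and replicate blocks. The tests were checked on simulated counts. Correlations used scipy 1.17.1. Names of LOC genes come from RefSeq's NfurGRZ-RIMD1 gene table, which paired 5241 of 14280 such identifiers with a symbol.

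The 7 genes, the marker lists (444 symbols in 14 lists) and the tests were chosen with earlier results of these data known. The text names the 7 genes, the 12 (3-month brain) or 6 (2-month liver) genes most alike among those with at least 20 reads in a library, mb21d1 and sting1, and at most 4 genes of a list, either called or with the most reads; cldn15la, aoc1, plac8, rbp2a, apoea, spdef and pdzk1 were picked for values from within these after their values were seen. One gene of the enterocyte list is counted in its list but not reported here.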

Additional observations from a re-analysis of the deposited data

Results flagged for a closer look

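In groups of 4 libraries, the highest or lowest library was compared with the others by Dixon's gap test, which flags about 1 in 20 groups by chance. Of 21 gene and group pairs with at least 10 reads in the highest library, 9 were past it. Of these 9, 7 were 1 library, the liver of WT 1 at 2 months. In that group each of the 7 genes reached 10 reads only through this liver. Their passing was therefore fixed by the choice of pairs, and it is given as a description. That liver had 10.42 CPM of fabp2, 2.715 of lct, 1.489 of malrd1, 1.007 of tmprss15, 2.233 of muc13b, 0.7883 of cdx1b and 0.6569 of muc2.1. The next highest WT liver had at most 0.1619 CPM of any of them. The liver of atm mutant 2 could not be tested this way, since that group has 3 livers.

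The brain of double mutant 2 had 2.229 CPM of malrd1 (44 reads), against at most 1.166 CPM in the other 3 brains of its group. The liver of double mutant 2 had 3.129 CPM of muc2.1 (64 reads), against at most 0.04181 CPM in the other 3 livers of its group. That pair too had 10 reads only through the flagged liver, so its passing was fixed in the same way. These values were not explained further.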

How the results depend on the processing

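In the 2-month brain and liver comparisons and the 3-month liver comparison, 0 of the 7 genes were called in any alternative. These were RLE scaling, no filter, DESeq2, leaving out any single library and the replicate block. The block was not run for male over female or for the 3-month livers. Few of the 7 were tested, however. At 2 months 2 were tested under RLE scaling, DESeq2 and the block, 2 to 7 without a library and 7 with no filter. In the 3-month livers 0 were tested, or 5 with no filter. Over all genes, calls in double mutant over WT livers ran from 0 with the block to 1265 of 16174 by DESeq2. Leaving out 1 mutant library gave 4 to 7 called in the 3-month brains (4 without cgas mutant female 2). Over all genes, these fits called from 7 of 13743 (without cgas mutant female 2) to 84 of 13786 (without cgas mutant male 3). None was called without WT female 4, but that fit leaves 1 WT library. The genes were chosen there, and the counts are no evidence of stability. In brain over liver 0 to 2 were called, with fewer samples in each case. The 2 came without the WT 1 liver, which stands out by these same genes, so nothing is read from them. The log2 change of malrd1 in atm mutant over WT brains turned sign, from -0.246 to 0.0746 with 1 replicate left out (0.0492 without atm mutant 3, 0.0686 without atm mutant 1 and 0.0746 without WT 2). That of fabp2 lay between -0.39 and -0.18 (lowest adjusted p 0.389), and in brain over liver between 0.40 and 5.85.

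Deviations of samples with the same replicate number correlated at -0.433 to -0.0318 in the lowest pair of each comparison. Their mean ranged from -0.329 (atm mutant and WT livers) to 0.118 (atm mutant and double mutant livers). For WT brains and livers the mean was 0.0564, against -0.0193 for samples with different numbers. Whether a WT brain and liver with the same number came from the same fish cannot be decided from this, since low correlation does not exclude it. The main comparisons treated all samples as unpaired. With the replicate block, fabp2 changed by -0.31 in atm mutants over WT brains and by 2.95 in brain over liver, neither called. In that tissue comparison the median of all genes was 0.24 by edgeR and 0.36 by DESeq2. Of the 12 most alike genes, 5 were again among the 12 with a pseudocount of 0.1, 0 with Spearman's measure and 4 without WT female 4. In the 3-month brains, depth limits counts of 0, and 2 WT libraries limit any statement on WT fish.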
